A study of Mus musculus with 6 samples.

Results

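The core circadian clock genes described here are Arntl, Clock, Npas2, Per1, Per2, Per3, Cry1, Cry2, Nr1d1 and Nr1d2. They are set by gene symbol, and the rule uses no measured value, but earlier results of these data were known when they were chosen. They make up 10 of the 21362 genes in the FPKM table and 10 of the 18453 genes with any expected count, and all 10 passed the filter on low counts that left 13431 genes for testing.

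RNA-seq was done on whole liver from 6 male Mettl14f/f mice on a high-fat diet (HFD), 3 given AAV8-TBG-GFP and 3 given AAV8-TBG-Cre. HFD started when the mice were 8 weeks old, the vector was given through the tail vein 10 weeks later, and RNA was extracted after a further 8 weeks. Mettl14 encodes a subunit of the m6A RNA methyltransferase, and AAV8 is an adeno-associated virus. The TBG (thyroxine-binding globulin) promoter is restricted to hepatocytes, so Cre removes floxed Mettl14 in hepatocytes and leaves it in the other cells of the liver. Both groups carried the floxed alleles, HFD and an AAV8 vector, and the control group was neither lean nor free of virus. The names that the submitters gave the libraries come in 2 forms, 3 digits (short) or 4 digits (long), whose meaning is not given in the sources used here. The short names belonged to replicate 1 of either vector and to AAV8-TBG-GFP replicate 2, and the long names to replicate 3 of either vector and to AAV8-TBG-Cre replicate 2. The time of day at which the livers were taken and the feeding state of these mice are not given there either.

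The libraries held between 20356459 and 21010524 expected counts, and the 10 most abundant genes took 15.8% to 17.7% of them. The first principal component (54.1% of the variance) separated the vectors and the second (18.7%) separated the forms of the library name. Mettl14 stood at 6.30, 6.43 and 5.81 CPM (counts relative to the library total, after TMM scaling) in AAV8-TBG-GFP replicates 1 to 3 and at 4.96, 5.38 and 4.86 CPM in AAV8-TBG-Cre replicates 1 to 3. The groups of Mettl14 did not overlap, but the log2 difference of -0.29 (SE 0.15) did not pass edgeR's quasi-likelihood test (adjusted p = 0.337), and the groups are used as labelled. Hepatocyte markers such as Alb and Ttr summed to 90250 to 124900 CPM per library. Bulk RNA from liver cannot tell fewer cells of a type from less RNA per cell, and this holds for every value below. Where 3 values are given for a vector, they follow the replicate numbers.

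The core clock is a feedback loop of transcription factors that keeps time in almost every cell and, in the liver, sets daily rhythms of glucose, lipid and bile acid metabolism. ARNTL (also called BMAL1) pairs with CLOCK or its relative NPAS2 on E-box sequences and drives the Per, Cry and Nr1d genes, whose PER and CRY proteins then repress that pair. The REV-ERB receptors encoded by Nr1d1 and Nr1d2 repress Arntl and Npas2 through ROR elements, which the activating ROR receptors also use. In liver the mRNAs of these genes rise and fall over the day, with Arntl and Npas2 peaking at another time of day than Nr1d1, Per3 and Dbp.

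The short DNA elements through which these loops are known to act are shown for the members that hold one, since they link the members whose levels are compared below. RefSeq promoter windows, which run from 250 bases before an annotated start to 50 bases after it on GRCm38.p6, were at hand for 9 of the 10 members. They were searched on both strands for the E-box CACGTG, its second form CACGTT, the D-box TTATGTAA, the ROR element TAGGTCA and the cyclic AMP response element TGACGTCA. Capitals mark the matched letters, and each stretch reads 5′ to 3′ on the strand of its gene. The E-box reads alike on both strands. The second form was found on the strand opposite to the gene, so it appears as AACGTG in the stretches printed here.
Per1, E-box, chr11:69098771-69098800, plus strand: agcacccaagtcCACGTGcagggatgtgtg
Cry1, E-box, chr10:85185097-85185126, minus strand: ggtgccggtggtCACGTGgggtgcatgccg
Cry1, second form, chr10:85185116-85185145, minus strand: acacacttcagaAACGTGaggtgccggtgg
Cry2, second form, chr2:92434218-92434247, minus strand: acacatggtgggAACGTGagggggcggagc
Nr1d1, second form, chr11:98775388-98775417, minus strand: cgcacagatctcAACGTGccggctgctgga
Per3, D-box, chr4:151044852-151044881, minus strand: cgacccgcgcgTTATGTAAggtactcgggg
Per3, D-box, chr4:151044805-151044834, minus strand: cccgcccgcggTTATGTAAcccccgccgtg
Arntl, ROR element, chr7:113207530-113207559, plus strand: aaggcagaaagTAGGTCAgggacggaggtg

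The E-box stood in the windows of 2 of these 9 members, Per1 at position -166 from the start and Cry1 at position -60, against 8.09% of all 27025 genes with a window. All genes with a window means here those whose windows were searched, which did not include every chromosome. The second form stood in the windows of Cry1, Cry2 and Nr1d1, against 5.44% of all genes with a window. Both copies of the D-box, the site of DBP, TEF, HLF and their repressor NFIL3, lay upstream of Per3 at positions -205 and -158, and 1.11% of all genes with a window held one. The ROR element lay at position 30 from 1 of the annotated starts of Arntl, against 2.97% of all genes with a window. The cyclic AMP response element was in no window of the 9 members and in a window of 2.03% of all genes. A match is a stretch of letters, and binding was not measured.

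In these livers, 8 of the 10 clock genes differed between long-named and short-named libraries and 1 differed between the vectors. With the vector in the model, Arntl, Clock, Npas2 and Nr1d1 were higher and Per3, Cry1, Cry2 and Nr1d2 were lower in the long-named libraries at an unadjusted p under 0.05 and a fold of at least 1.2, the threshold of the study. The same call fell on 15.9% of all tested genes, 8.11% higher and 7.79% lower. At an adjusted p under 0.05 (edgeR's quasi-likelihood test with Benjamini-Hochberg adjustment), 2 members passed, Nr1d1 and Per3, against 1.39% of all tested genes. Between the vectors only Cry1 was called, lower in the AAV8-TBG-Cre livers, against 20.5% of all tested genes called and 8.41% called lower, and no member passed the adjusted threshold (0.931% of all genes), in edgeR, DESeq2 or limma. The members' log2 fold changes had a median of 0.14 between the vectors and also 0.14 between the forms, beside medians of -0.0065 and 0.013 over all tested genes, and ranged from -1.01 to 1.60 between the vectors and from -0.90 to 2.10 between the forms.

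The 6 members whose levels did not overlap between the forms were Clock, Npas2 and Nr1d1 (higher in all 3 long-named libraries) and Per3, Cry1 and Nr1d2 (lower in all 3), while 21.6% of all tested genes did not overlap in this way. No member's levels were without overlap between the vectors, where 27% of all tested genes were. An exact two-sided permutation test of 3 libraries against 3 cannot go below a p of 0.1, so the calls rest on the fit across all genes.

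**Figure D1:**
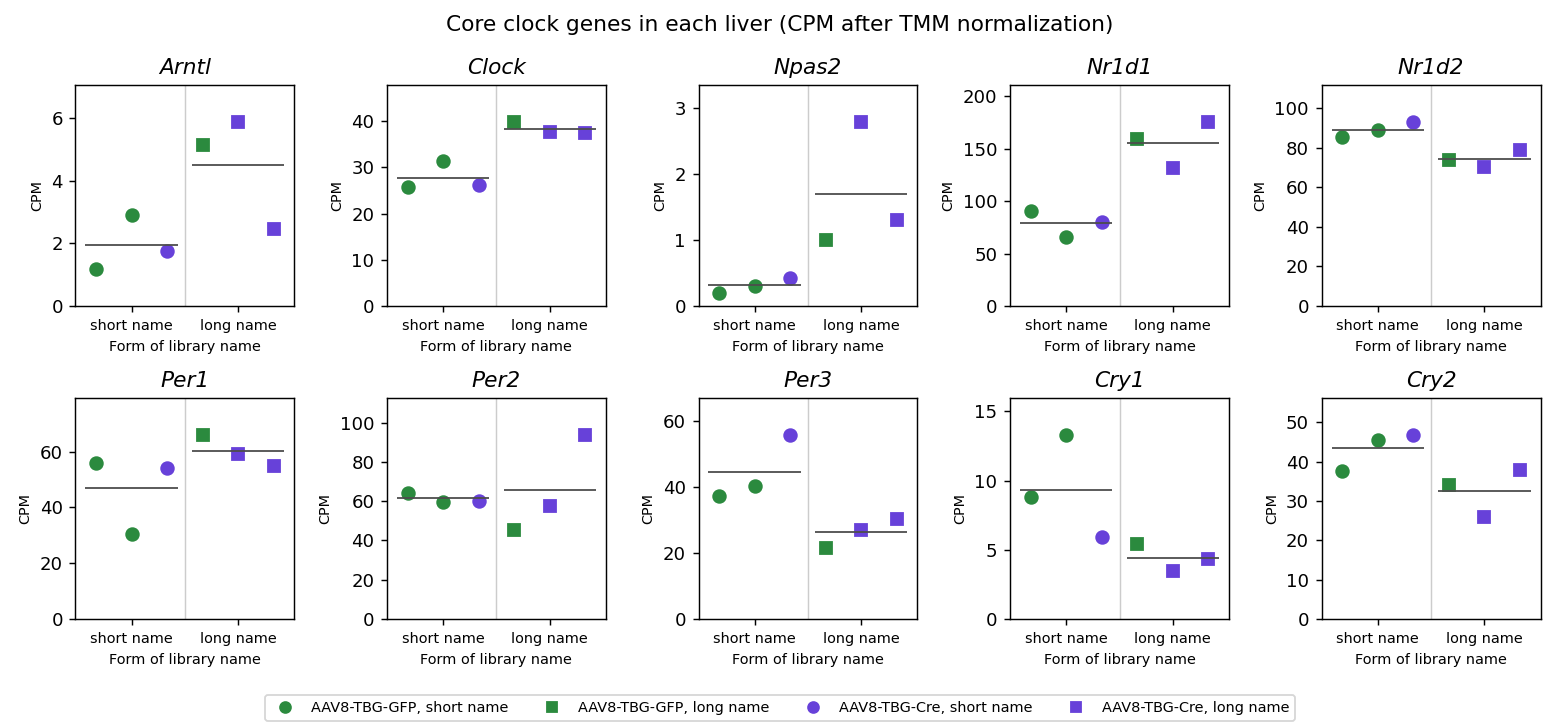
CPM of each core clock gene (vertical axes, linear from 0, each with its own scale) in every liver, with short-named libraries as circles on the left and long-named libraries as squares on the right, AAV8-TBG-GFP in green, AAV8-TBG-Cre in purple and the mean of each form as a line. Clock, Npas2 and Nr1d1 lie wholly higher and Per3, Cry1 and Nr1d2 wholly lower on the right, and in every panel the green and the purple points overlap.

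Markers of other cells moved with the vector and, in 1 list, with the form. Summed CPM of 6 endothelial markers was 146.8 to 188.2 in the short-named and 122.2 to 135.8 in the long-named libraries, without overlap. Singly, 4 of these 6 were lower in the long-named libraries without overlap, while Stab2 and Lyve1 overlapped. Between the vectors the endothelial sums overlapped, but Stab2 and Lyve1 were lower with AAV8-TBG-Cre without overlap, and Stab2 was called. Between the vectors the sums did not overlap for 6 cholangiocyte markers (49.8 to 102.9 against 269.7 to 536.8), 6 macrophage markers (148.9 to 181.4 against 251.1 to 425.2), 6 stellate cell and fibroblast markers (197.3 to 293.1 against 417.9 to 899.4) and 5 neutrophil markers (10.1 to 10.6 against 13.98 to 16.8), in AAV8-TBG-GFP against AAV8-TBG-Cre. Singly, 6 cholangiocyte, 3 macrophage, 4 stellate cell and fibroblast and 3 neutrophil markers were higher with AAV8-TBG-Cre without overlap. The stellate cell marker Lrat had a log2 difference of -0.25, not called. The neutrophil marker Ly6g was lower without overlap, at 5.03, 5.97 and 5.18 CPM against 4.30, 3.70 and 3.32 CPM. The sums for T and NK cells (1.89 to 2.39 against 2.48 to 6.28) and for B cells (1.33 to 1.47 against 1.59 to 3.96) were near the floor but also did not overlap. AAV8-TBG-Cre replicate 2, which had the highest Npas2 and the lowest Cry1 and Cry2, had the highest sum in 5 of the 7 lists of other cells. No marker of any list was at 0 in all 6 libraries, and the summed hepatocyte markers overlapped in both comparisons, while 3 of these 6 markers did not overlap between the vectors, Ttr lower and Ahsg and Cps1 higher with AAV8-TBG-Cre. The part of other cells in the levels of the clock genes was not tested.

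Levels between genes were compared as FPKM, which is scaled by transcript length. Nr1d1 had the highest level, with a median of 41.6 FPKM over the 6 livers, followed by Nr1d2 (17.6), Per1 (11.6), Per2 (10.4), Cry2 (9.09), Per3 (5.59), Clock (3.37), Cry1 (1.80), Arntl (0.90) and Npas2 (0.16). Only Nr1d1 and Nr1d2 had ranges over the 6 livers that did not overlap, 22.3 to 62.0 FPKM against 14.3 to 20.2 FPKM, and every other pair of neighbours in this order overlapped. The order held within all 6 livers for Nr1d2 over Per1, Cry2 over Per3 and Arntl over Npas2, but in 3 of 6 livers for Per2 over Cry2. The REV-ERB and PER genes had higher median FPKM than the activators, and the least abundant members were those that varied most between livers: the highest level was 13.7 times the lowest for Npas2 and 5.03 times for Arntl on the CPM scale, against 1.32 times for Nr1d2 and 1.54 times for Clock.

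**Figure D2:**
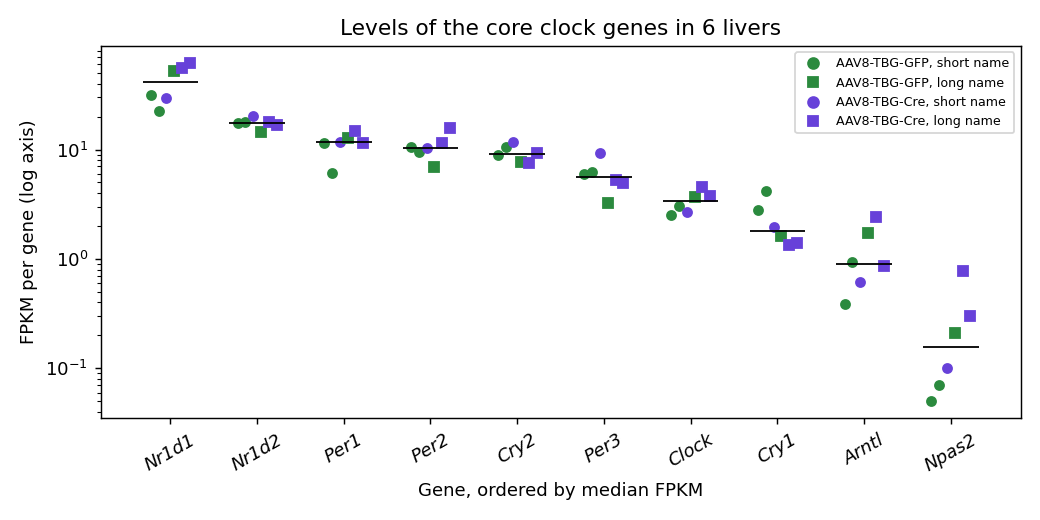
FPKM of the core clock genes in 6 livers on a log axis, with genes ordered by their median (line), circles for short-named and squares for long-named libraries, green for AAV8-TBG-GFP and purple for AAV8-TBG-Cre. The medians run from 41.6 FPKM for Nr1d1 to 0.16 FPKM for Npas2, and the points of Npas2 and Arntl spread the most.

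Among the activators, Arntl (chr7:113178471-113314126), the partner that every active clock complex needs, was measured at 1.17, 2.91 and 5.13 CPM in AAV8-TBG-GFP replicates 1 to 3 and at 1.77, 5.87 and 2.46 CPM in AAV8-TBG-Cre replicates 1 to 3. The long-named libraries averaged 4.49 CPM ± 1.80 (SD, n = 3) and the short-named libraries 1.95 CPM ± 0.88 (SD, n = 3), and AAV8-TBG-Cre replicate 3, the lowest of the long-named, lay below AAV8-TBG-GFP replicate 2. The log2 difference between the forms was 1.29 (SE 0.45, edgeR unadjusted p = 0.0243, adjusted p = 0.218). This call was lost without AAV8-TBG-GFP replicate 3 (1.25), AAV8-TBG-Cre replicate 1 (1.31) or AAV8-TBG-Cre replicate 2 (0.99). Between the vectors the log2 difference was 0.14 (SE 0.59, adjusted p = 0.915), and it was -0.25 with the form of the name in the model.

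Clock (chr5:76209868-76305603), which encodes the usual partner of ARNTL, stood at 25.8, 31.3 and 39.8 CPM in AAV8-TBG-GFP replicates 1 to 3 and at 26.2, 37.7 and 37.5 CPM in AAV8-TBG-Cre replicates 1 to 3. The 3 long-named libraries lay close to one another and above all 3 short-named libraries. Clock was higher in the long-named libraries by 0.50 on the log2 scale (SE 0.10, edgeR unadjusted p = 0.00183, adjusted p = 0.0731), a call at the unadjusted threshold that held without each of the 6 livers in turn. Between the vectors it differed by 0.065 (SE 0.20, adjusted p = 0.882).

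Npas2 (chr1:39193702-39363240), the gene of the other ARNTL partner, was the least abundant member, with 4, 6 and 19 counts in AAV8-TBG-GFP replicates 1 to 3 and 9, 68 and 27 counts in AAV8-TBG-Cre replicates 1 to 3. These are 0.20, 0.31 and 0.99 CPM and 0.43, 2.79 and 1.30 CPM. AAV8-TBG-Cre replicate 2 was the highest, all long-named libraries lay above all short-named ones, and counting error is large at such counts. The difference between the forms was 2.10 on the log2 scale (SE 0.48, edgeR unadjusted p = 0.003, adjusted p = 0.0904), and without AAV8-TBG-Cre replicate 2 it was 1.77 and still called. Between the vectors the log2 difference was 1.60 (SE 0.78, edgeR unadjusted p = 0.0754, adjusted p = 0.291), 0.93 with the form in the model and 0.78 without AAV8-TBG-Cre replicate 2. That difference passed the unadjusted threshold without AAV8-TBG-GFP replicate 3 (2.54) or without AAV8-TBG-Cre replicate 1 (2.03). Relative to Clock, Npas2 FPKM was 1.98%, 2.31% and 3.70% in the short-named libraries and 5.68%, 17.3% and 7.96% in the long-named ones.

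The REV-ERB receptor gene Nr1d1 (chr11:98767932-98775377), a direct target of the activators and a repressor of Arntl, stood at 90.5, 65.8 and 159.6 CPM in AAV8-TBG-GFP replicates 1 to 3 and at 80.5, 131.2 and 175.7 CPM in AAV8-TBG-Cre replicates 1 to 3. The long-named libraries averaged 155.5 CPM ± 22.5 (SD, n = 3) and the short-named 78.9 CPM ± 12.5 (SD, n = 3), with no overlap. Nr1d1 was 1.97-fold higher in the long-named libraries (log2 0.98, SE 0.17, edgeR adjusted p = 0.0470). The log2 difference stayed between 0.88 and 1.07 when each liver was left out, but the adjusted p then lay between 0.0542 and 0.237 and passed in none of the 6 fits. Long-named over short-named was 1.03 on the log2 scale within the AAV8-TBG-GFP livers and 0.93 within the AAV8-TBG-Cre livers. Between the vectors Nr1d1 differed by 0.29 (SE 0.37, adjusted p = 0.701), and by -0.0075 with the form in the model.

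The 3′ end of Nr1d1 overlaps Thra, the thyroid hormone receptor gene on the opposite strand, over 1075 bases, and whether counting used strand is not stated. Thra itself had 286 to 597 counts per library, against 1289 to 3650 for Nr1d1, and was higher in the long-named libraries by 0.62 on the log2 scale (SE 0.13, edgeR unadjusted p = 0.00215, adjusted p = 0.0787). If it did not, reads of the 2 genes in that stretch cannot be told apart.

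Nr1d2 (chr14:18204056-18239106), the second REV-ERB gene, was the steadiest member, at 85.5, 89.0 and 73.7 CPM in AAV8-TBG-GFP replicates 1 to 3 and at 93.1, 70.5 and 78.8 CPM in AAV8-TBG-Cre replicates 1 to 3. Its 3 long-named libraries all lay below its 3 short-named libraries, the opposite order to Nr1d1. The log2 difference was -0.28 (SE 0.098, edgeR unadjusted p = 0.0226, adjusted p = 0.212), close to the fold threshold of 1.2. The call was lost without AAV8-TBG-GFP replicate 2 (-0.28), AAV8-TBG-GFP replicate 3 (-0.31), AAV8-TBG-Cre replicate 1 (-0.26) or AAV8-TBG-Cre replicate 2 (-0.25). Between the vectors Nr1d2 differed by -0.034 (SE 0.14, adjusted p = 0.912). Nr1d1 FPKM was 124% to 177% of Nr1d2 FPKM in the short-named libraries and 312% to 374% in the long-named ones.

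Of the PER genes, whose proteins enter the nucleus with CRY and shut off the activators, Per3 (chr4:150997018-151044707) differed most clearly between the forms. It stood at 37.3, 40.3 and 21.7 CPM in AAV8-TBG-GFP replicates 1 to 3 and at 55.9, 27.2 and 30.3 CPM in AAV8-TBG-Cre replicates 1 to 3. All long-named libraries lay below all short-named ones, and within each form the AAV8-TBG-Cre values lay above the AAV8-TBG-GFP values. Per3 was lower in the long-named libraries (log2 -0.90, SE 0.097, edgeR adjusted p = 0.0184). The adjusted p no longer passed without AAV8-TBG-GFP replicate 2 (0.0680), AAV8-TBG-GFP replicate 3 (0.0727) or AAV8-TBG-Cre replicate 1 (0.164), with log2 differences of -0.89, -0.96 and -0.85.

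Between the vectors alone the log2 difference of Per3 was 0.19 (SE 0.32, adjusted p = 0.778). With the form of the name in the model it was 0.47 (SE 0.097, edgeR unadjusted p = 0.00163, adjusted p = 0.0647), which passed the unadjusted threshold, and the ratios within the forms were 0.53 in the short-named and 0.41 in the long-named libraries. Without AAV8-TBG-Cre replicate 1 the difference between the vectors alone was -0.21.

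Per1 (chr11:69095108-69109965), the PER gene known to respond quickly to glucocorticoids, was measured at 56.0, 30.4 and 66.1 CPM in AAV8-TBG-GFP replicates 1 to 3 and at 54.2, 59.4 and 54.9 CPM in AAV8-TBG-Cre replicates 1 to 3. AAV8-TBG-GFP replicate 2 lay apart at the low end, and the other livers lay between 54.2 and 66.1 CPM. The log2 difference between the forms was 0.35 (SE 0.23, adjusted p = 0.515) and that between the vectors 0.14 (SE 0.25, adjusted p = 0.789) in edgeR's quasi-likelihood test, and neither was called.

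Per2 (chr1:91415977-91459351) stood at 64.3, 59.8 and 45.1 CPM in AAV8-TBG-GFP replicates 1 to 3 and at 60.0, 57.8 and 93.8 CPM in AAV8-TBG-Cre replicates 1 to 3. The short-named libraries lay close to one another, and the lowest and the highest value were both long-named. Per2 differed by -0.059 between the forms (SE 0.25, adjusted p = 0.934) and by 0.32 between the vectors (SE 0.22, adjusted p = 0.449), and edgeR called neither. It was the only member for which long-named over short-named had opposite signs within the vectors, -0.46 in the AAV8-TBG-GFP livers and 0.34 in the AAV8-TBG-Cre livers on the log2 scale. The test of that difference, the interaction of vector and form, gave 0.80 (edgeR unadjusted p = 0.0854), and no member passed it, against 5.78% of all tested genes.

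Cry1 (chr10:85131700-85185054), the stronger repressor of the CRY pair, stood at 8.79, 13.3 and 5.44 CPM in AAV8-TBG-GFP replicates 1 to 3 and at 5.92, 3.49 and 4.33 CPM in AAV8-TBG-Cre replicates 1 to 3. AAV8-TBG-GFP replicate 2 was highest, and AAV8-TBG-GFP replicate 3 lay below AAV8-TBG-Cre replicate 1, so the vectors overlapped while the forms did not. Cry1 was 0.50 times as high in the AAV8-TBG-Cre livers (log2 -1.01, SE 0.34, edgeR unadjusted p = 0.0198, adjusted p = 0.160), from a mean of 9.18 CPM ± 3.95 to 4.58 CPM ± 1.23 (SD, n = 3 each). The call was lost without AAV8-TBG-GFP replicate 2 (-0.64), AAV8-TBG-Cre replicate 2 (-0.85) or AAV8-TBG-Cre replicate 3 (-0.97), and limma on log2(FPKM + 1) gave -0.54 and did not call it. With the form in the model the difference between the vectors was -0.70 (SE 0.24, edgeR unadjusted p = 0.0203, adjusted p = 0.168) and remained called.

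Between the forms Cry1 differed by -0.81 (SE 0.24, edgeR unadjusted p = 0.0101, adjusted p = 0.152), a call lost without AAV8-TBG-GFP replicate 3 (-0.60). The log2 ratio of AAV8-TBG-Cre over AAV8-TBG-GFP was -0.90 within the short-named and -0.48 within the long-named libraries. That of long-named over short-named was -1.02 within the AAV8-TBG-GFP and -0.60 within the AAV8-TBG-Cre livers.

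Cry2 (chr2:92403646-92434085), the paralogue of Cry1, stood at 37.7, 45.4 and 34.1 CPM in AAV8-TBG-GFP replicates 1 to 3 and at 46.8, 25.9 and 37.8 CPM in AAV8-TBG-Cre replicates 1 to 3. AAV8-TBG-Cre replicate 2 was lowest, and AAV8-TBG-Cre replicate 3 and AAV8-TBG-GFP replicate 1 were level, so the forms just overlapped. The log2 difference between the forms was -0.42 (SE 0.17, edgeR unadjusted p = 0.0378, adjusted p = 0.265), a call lost without AAV8-TBG-GFP replicate 2 (-0.38), AAV8-TBG-GFP replicate 3 (-0.55) or AAV8-TBG-Cre replicate 1 (-0.30). Between the vectors Cry2 differed by -0.086 (SE 0.22, adjusted p = 0.856), a sign that turned with the form in the model (0.037) and on the FPKM scale (0.048). Cry1 FPKM was 31.0%, 39.0% and 21.1% of Cry2 FPKM in AAV8-TBG-GFP replicates 1 to 3 and 16.8%, 17.8% and 15.2% in AAV8-TBG-Cre replicates 1 to 3, so that the ratio did not overlap between the vectors. Cry1 FPKM by itself did overlap (1.62 to 4.14 against 1.34 to 1.97), and the share of other gene pairs without overlap was not counted.

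**Figure D3:**
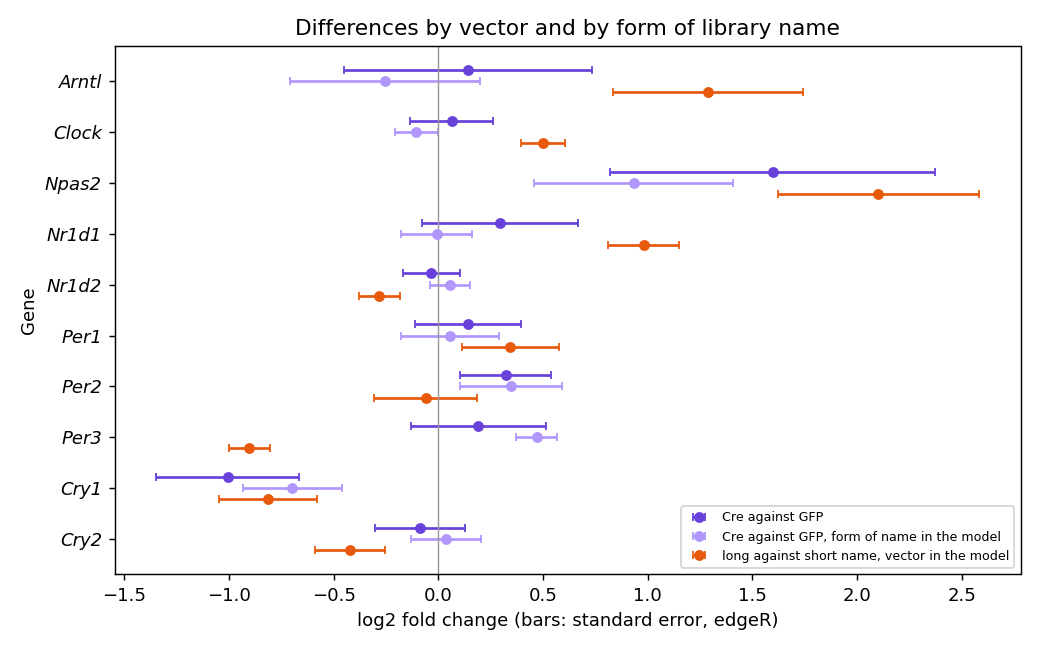
Log2 fold changes of the core clock genes (horizontal axis) with standard errors from edgeR as bars, for AAV8-TBG-Cre against AAV8-TBG-GFP alone (dark purple), for the same with the form of the name in the model (light purple), and for long-named against short-named libraries with the vector in the model (orange). The orange points of called genes lie right of 0 for Arntl, Clock, Npas2 and Nr1d1 and left of 0 for Nr1d2, Per3, Cry1 and Cry2, while Cry1 at -1.01 is the only called gene among the dark purple points.

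Across the members, long-named over short-named had the same sign in the AAV8-TBG-GFP and in the AAV8-TBG-Cre livers for 9 of 10 genes. AAV8-TBG-Cre over AAV8-TBG-GFP had the same sign in both forms for 6 of 10. Each of these ratios sets 1 library against 2. The shares over all tested genes were not counted, so whether 9 or 6 of 10 is unusual cannot be told. Adding the form of the name to the model of the vectors changed the calls from 1 member to 2, Per3 higher and Cry1 lower, against 19.4% of all tested genes in that model. Vector and form share livers unevenly, with 2 of 3 short-named libraries from AAV8-TBG-GFP and 2 of 3 long-named from AAV8-TBG-Cre, and what the form of the name stands for cannot be told apart from any other difference between these sets of livers.

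The ROR receptors, which activate Arntl through the element that the REV-ERBs repress, were represented by Rora, and Rorb did not pass the filter on low counts. Rora stayed between 54.8 and 69.9 CPM, with log2 differences of 0.12 between the vectors and -0.15 between the forms, and neither was called.

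The 7 transcription factors of the output and feedback loops are Dbp, Tef and Hlf, which activate through the D-box, Nfil3, which represses there, and the repressors Bhlhe40, Bhlhe41 and Ciart. Between the vectors none was higher and 2 were lower at the unadjusted threshold, Hlf and Nfil3, and none passed the adjusted one. Hlf was at 111.2, 106.1 and 123.7 CPM in the AAV8-TBG-GFP livers, against 94.5, 66.5 and 89.2 CPM in the AAV8-TBG-Cre livers, without overlap (log2 -0.45, SE 0.15, edgeR adjusted p = 0.160), and lost the call without AAV8-TBG-GFP replicate 3 (-0.39). Nfil3, a target of the REV-ERBs, was at 24.3, 27.7 and 14.5 CPM in the AAV8-TBG-GFP livers, against 14.3, 14.4 and 8.38 CPM in the AAV8-TBG-Cre livers (log2 -0.84, SE 0.29, edgeR adjusted p = 0.158). Its call was lost without AAV8-TBG-GFP replicate 1 (-0.78), AAV8-TBG-GFP replicate 2 (-0.65) or AAV8-TBG-Cre replicate 3 (-0.63).

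Between the forms 2 of the 7 were called, both lower in the long-named libraries: Nfil3 and Tef, the latter from 217.0 to 238.7 CPM in the short-named to 141.1 to 191.8 CPM in the long-named libraries. Dbp, the D-box activator whose rhythm is among the largest in liver, ranged from 92.0 to 172.2 CPM and passed neither test, with its highest values in AAV8-TBG-Cre replicates 1 and 3. The median log2 difference of these factors was 0.033 between the vectors and -0.27 between the forms, against -0.0065 and 0.013 over all tested genes.

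**Figure D4:**
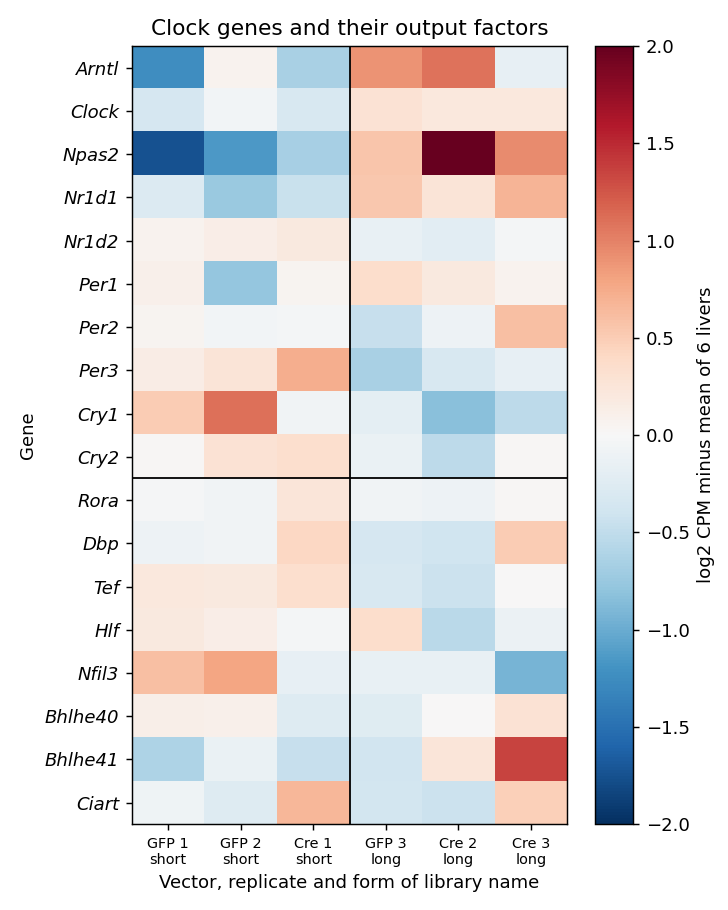
Log2 CPM minus the mean of the 6 livers (colour, red higher and blue lower, limits -2 to 2) for the core clock genes (upper block) and Rora and the output factors (lower block), with short-named libraries left of the vertical line and long-named right of it. Arntl, Clock, Npas2 and Nr1d1 turn from blue to red across the line with the exceptions of AAV8-TBG-GFP replicate 2 and AAV8-TBG-Cre replicate 3 for Arntl, while Per3 and Cry1 turn from red to blue, except that Cry1 in AAV8-TBG-Cre replicate 1 is close to 0.

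The wider set of lists around the clock held 36 genes, of which 35 were tested. Between the vectors 5 were called higher (Csnk1e, Sgk1, Rbm3, Hspa1a and Hspa1b) and 3 lower (Hlf, Nfil3 and Rgs16), and none passed the adjusted threshold in edgeR (1 in DESeq2). Between the forms 7 were called higher and 10 lower, and 4 passed the adjusted threshold, named after their values were seen: Upp2, Por and Fkbp5 lower and Rbm3 higher. Without AAV8-TBG-GFP replicate 2 or without AAV8-TBG-Cre replicate 1 the number past the adjusted threshold was 0, while all 4 kept an unadjusted p under 0.05 without each liver in turn. The background shares are those given above, 20.5% for the vectors and 15.9% for the forms.

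Among the 9 genes of clock protein stability, kinases and ubiquitin ligases that set how long PER and CRY last, the kinase gene Csnk1e was called higher with AAV8-TBG-Cre, from 9.40, 7.50 and 7.85 CPM to 9.64, 17.5 and 14.01 CPM (log2 0.73, SE 0.22, edgeR adjusted p = 0.132). Its lowest AAV8-TBG-Cre value only just exceeded the highest AAV8-TBG-GFP value. The other 8, among them Csnk1d, were not called between the vectors, and 1, the deubiquitinase gene Usp2, was lower in the long-named libraries (log2 -0.74, adjusted p = 0.0731).

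Of the 8 clock-controlled enzymes and signalling genes, Rgs16, a regulator of G protein signalling, showed the widest difference between the vectors. It stood at 419.0, 229.9 and 85.9 CPM in AAV8-TBG-GFP replicates 1 to 3 and at 43.1, 31.1 and 28.5 CPM in AAV8-TBG-Cre replicates 1 to 3. The groups did not overlap, and within AAV8-TBG-GFP the single long-named library was the lowest. The log2 difference was -2.84 (SE 0.52, edgeR adjusted p = 0.0552), -2.22 (adjusted p = 0.0408) with the form in the model, and the adjusted p ran from 0.000507 to 0.201 over its alternatives. Between the forms 2 of the 8 were called higher and 5 lower. Upp2, a uridine phosphorylase, fell from 491.2, 665.0 and 920.7 CPM in the short-named libraries to 172.4, 136.9 and 188.0 CPM in the long-named ones (log2 -2.12, SE 0.23, edgeR adjusted p = 0.0184). Por, the electron donor of the cytochromes P450, had 824.3 to 849.7 CPM in the short-named and 455.6 to 530.2 CPM in the long-named libraries (log2 -0.82, SE 0.14, edgeR adjusted p = 0.0456).

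Of the 4 glucocorticoid-induced genes, Sgk1, a kinase gene, was called higher with AAV8-TBG-Cre (log2 0.43, SE 0.13, edgeR adjusted p = 0.131), and Fkbp5, a co-chaperone of the glucocorticoid receptor, was lower in the long-named libraries, at 41.6 to 61.1 CPM against 102.4 to 131.9 CPM (log2 -1.11, SE 0.18, edgeR adjusted p = 0.0389). The others went in both directions between the forms, Tsc22d3 higher and Zbtb16 lower at the unadjusted threshold. For Zbtb16 this came with 1 library, AAV8-TBG-GFP replicate 3 at 6.75 CPM, against 40.2 to 66.6 CPM in all other livers. Its log2 ratio of long-named over short-named was -0.26 within the AAV8-TBG-Cre livers.

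Of the 6 temperature-responsive genes, 3 were called higher with AAV8-TBG-Cre and 4 higher in the long-named libraries. Of all 13431 tested genes, 1618 were called higher with AAV8-TBG-Cre and 8.11% higher in the long-named libraries. The cold-inducible RNA-binding gene Rbm3 stood at 19.5, 22.8 and 38.0 CPM in the short-named and 42.7, 72.0 and 54.4 CPM in the long-named libraries (log2 0.87, SE 0.14, edgeR adjusted p = 0.0425). The heat shock gene Hspa1b, called higher with AAV8-TBG-Cre, stood at 27.7, 25.1 and 94.1 CPM in AAV8-TBG-GFP replicates 1 to 3 and at 20.4, 314.1 and 816.9 CPM in AAV8-TBG-Cre replicates 1 to 3. Its groups overlapped, its log2 difference between the vectors was 2.97 (SE 1.12, edgeR unadjusted p = 0.0304, adjusted p = 0.192), and with the form of the name in the model it was 1.15 and no longer called. It also lost the call without AAV8-TBG-GFP replicate 1 (2.69), AAV8-TBG-GFP replicate 2 (2.66), AAV8-TBG-Cre replicate 2 (3.10) or AAV8-TBG-Cre replicate 3 (1.77). The call of Hspa1a between the vectors was lost with the form of the name in the model (1.28 against 2.84 on the log2 scale) and without the same 4 libraries, and that of Rbm3 without AAV8-TBG-GFP replicate 1 (0.74), AAV8-TBG-GFP replicate 2 (0.82) or AAV8-TBG-Cre replicate 2 (0.70). Hspa1a and Hspa1b are near-identical copies whose reads may be split between them. Neither was called between the vectors in limma on log2(FPKM + 1), with or without a filter, or on log2(FPKM + 0.1).

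Where a member has more than 1 annotated transcript, the share of its expected counts on each one was read as a description, since fragments common to transcripts are divided by estimation. Of Per1 counts, 78.7% were on the shorter transcript (NM_001159367, 4648 bases against 4663) in AAV8-TBG-Cre replicate 2 and between 0% and 7.35% in the other 5 livers. The total of Per1 in that liver, 59.4 CPM, was within the range of the others. Of Arntl counts, the shorter transcript (NM_001243048) took 14.4%, 0% and 0% in the short-named and 69.9%, 31.2% and 42.1% in the long-named libraries, on 23 to 143 counts per liver. For Clock the transcript NM_007715 took 0% of the counts in 2 livers, AAV8-TBG-GFP replicates 1 and 2, against 10.97% to 27.2% in the other 4. Per3 counts were all on NM_011067 in AAV8-TBG-Cre replicate 3 and 34.9% there in AAV8-TBG-GFP replicate 3. Cry1, Cry2, Npas2, Nr1d1, Nr1d2 and Per2 each had 1 transcript with counts.

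**Figure D5:**
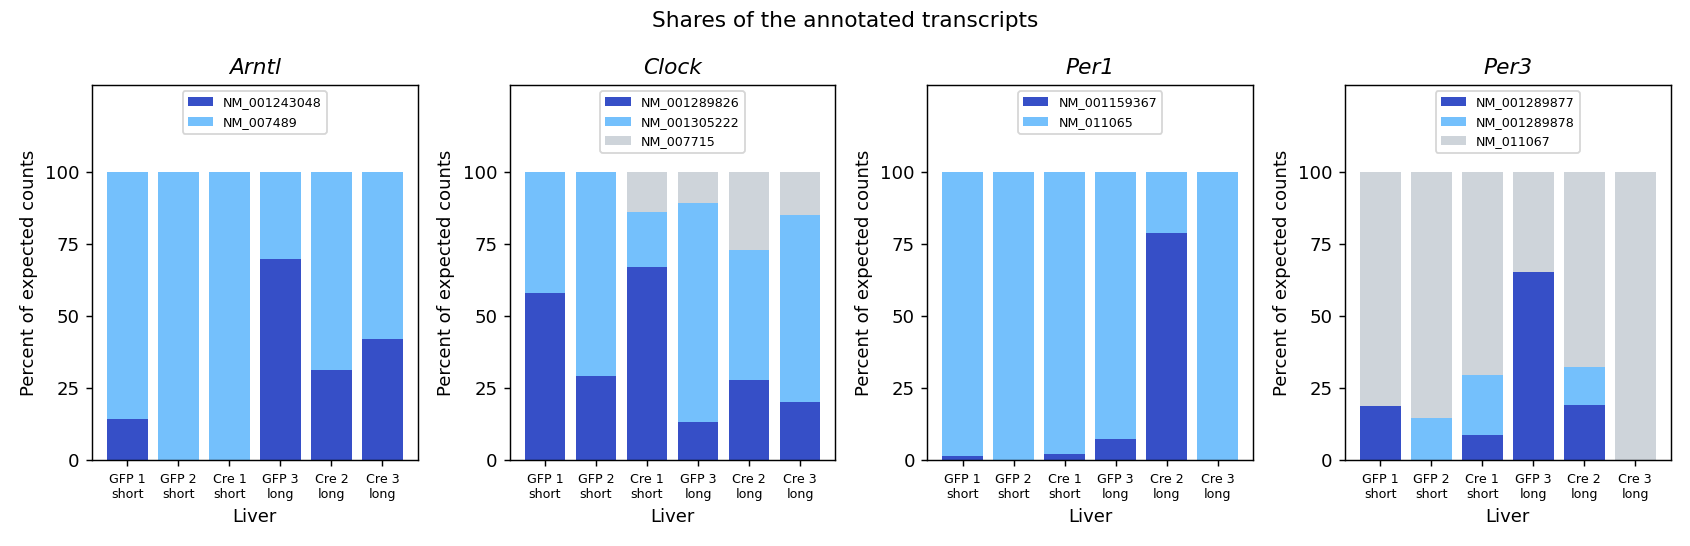
Percent of the expected counts of Arntl, Clock, Per1 and Per3 on each annotated transcript (stacked bars from 0 to 100) in every liver, short-named libraries first. The bar of Per1 in AAV8-TBG-Cre replicate 2 stands apart with 78.7% on NM_001159367, and the darker part of Arntl is larger in the 3 long-named libraries (31.2% to 69.9%) than in the short-named ones (0% to 14.4%).

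The genes whose profile over the 6 libraries was most like that of a member were found by the root mean square difference of log2 CPM after centring each gene on its own mean, among 11287 genes that are not members. Nearest to Nr1d1 were S1pr1 (0.072), Plekhf1 (0.10), Rtn4rl1 (0.125), Gtf2ird1 (0.125) and Eps8l2 (0.14), where the profile of Nr1d1 itself spread by 0.52. S1pr1, a sphingosine-1-phosphate receptor gene, went from 37.2, 25.8 and 32.1 CPM in the short-named to 69.7, 51.4 and 65.2 CPM in the long-named libraries. Among the nearest to Arntl were Cyr61 (0.40), Rsad2 (0.40), Abi3 (0.45) and Slc22a3 (0.45), where Arntl spread by 0.78, so no searched gene followed Arntl as closely as S1pr1 followed Nr1d1. Arntl had 23 to 143 counts per liver, against 1289 to 3650 for Nr1d1, and the part of counting error in these distances was not tested. Likeness over 6 libraries that share 1 normalization is a description only.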

How the data were processed

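Per the labels and the methods of the study, RNA-seq was done on 6 livers, which were grouped by vector. For every library, the files deposited by the authors give each transcript an expected count (an estimate that need not be whole, not normalized) and FPKM per transcript and per gene, scaled by transcript length and mapped fragments. The submitters' processing notes name HISAT2, Bowtie2, RSEM and mm10, while the methods name STAR, HTSeq and DESeq2, all without versions, and strand use is not stated.

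Expected counts were summed per NCBI gene ID and rounded, and 45.4% of them were whole within 0.005. They were fitted with edgeR 4.0.16 in R 4.3.3 (TMM, filterByExpr, quasi-likelihood test) on the vector alone, on vector and form of the library name, and with their interaction. Standard errors came from the quasi-F statistic, and adjusted p-values are Benjamini-Hochberg over all 13431 tested genes. CPM are TMM-normalized. Libraries differed beyond sampling noise (smallest chi-square per gene of a pair, 26.5), and p-values measure the spread between single mice. The steps were tested on simulated data. Of 98 genes simulated with a log2 change of 1 between the vectors among 13351 tested, edgeR found 68.4% at an adjusted p under 0.05. Of 100 so simulated between the forms among 13365, it found 53%. The simulated spread came from the fit with vector and form, and no form difference was simulated in the test of the vector alone. The 68.4% may therefore overstate what that test could find for genes that differ between the forms.

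The alternatives were DESeq2 1.42.0, RLE, no filter on low counts, a block on the replicate number, a covariate for the form, limma 3.58.1 on log2(FPKM + 1) with and without a filter (0.5 FPKM in 3 libraries) and on log2(FPKM + 0.1) with it, and leaving out each liver. The members, gene lists and tests were chosen with earlier results of these data known. Beside the members and Mettl14, the text names the list genes called between the vectors, the 2 with the largest change in a list without calls, and genes among the 5 nearest profiles (mean log2 CPM of at least 1) of Arntl and Nr1d1, and some genes that this rule and the lists would hold are not reported here. Positions and promoter windows are from RefSeq on GRCm38.p6, the assembly of mm10, and the promoter table gave no Per2 window.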

Additional observations from a re-analysis of the deposited data

Results flagged for a closer look

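The difference between the vectors changed with the form of the library name for 10 of the 35 tested list genes and for none of the 10 clock members, by the interaction term in edgeR's quasi-likelihood test at an unadjusted p under 0.05 and a fold of at least 1.2. None of the 10 passed the adjusted threshold, where 1 gene of all those tested did, and 5.78% of all tested genes had such an unadjusted call. With 1 or 2 libraries in each combination, 2 residual degrees of freedom remain.

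The heat shock and cold-inducible genes made up 5 of the 10. The interaction was 4.40 on the log2 scale for Hspa1a, where AAV8-TBG-Cre over AAV8-TBG-GFP was -1.48 within the short-named and 2.93 within the long-named libraries (adjusted p = 0.282). It was 2.95 for Hspa1b (-0.37 and 2.59, adjusted p = 0.762), 1.74 for Hsp90aa1, 1.51 for Hsph1 and -0.99 for Cirbp. Zbtb16, a glucocorticoid-induced transcription factor gene, had 2.74 (0.16 and 2.90). Its level in AAV8-TBG-GFP replicate 3, the only long-named library of that vector, was 6.75 CPM, against 40.2 to 66.6 CPM in all other livers. Rgs16 had 1.39, with a difference below 0 in both forms (-2.91 and -1.53). The cell cycle kinase gene Wee1 had 0.99, the casein kinase gene Csnk1e 0.81 and the clock repressor gene Bhlhe40 0.77.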

How the results depend on the processing

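Over the 10 members, 105 of 138 log2 differences between the vectors kept their direction and their side of the unadjusted threshold under the alternatives, 6 lost and 4 gained a call and 23 turned sign, none of them a called difference. Between the forms of the name the numbers were 84, 12, 0 and 3 of 99, and for the interaction 10 of 10 held under RLE. Of 140 values of named list genes between the vectors 112 held and 28 lost a call, and all 40 between the forms held. Groups of 3 livers and few counts (4 to 68 for Npas2) limit what could be detected. The causes of the changes were not tested.

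Over all genes, edgeR called 1618 higher and 1129 lower between the vectors and 125 at an adjusted p under 0.05. The adjusted count was 1157 in DESeq2, 372 without the filter, 214 with the form as a covariate, and 24, 21 and 9 in limma on log2(FPKM + 1), on log2(FPKM + 0.1) and on log2(FPKM + 1) without a filter, where 362, 353 and 355 genes were lower. On the FPKM scale the median of all genes moved to 0.11 on the log2 scale and 84.1% of calls were higher, against 58.9% with TMM. Members called higher numbered 1 in DESeq2 (Npas2) and 1 with the form as a covariate (Per3), against 0 in edgeR, and members called lower 0 in each limma fit. List genes called lower numbered 1 in limma on log2(FPKM + 0.1), and list genes at an adjusted p under 0.05 numbered 1 in DESeq2, 1 with the form as a covariate and 1 without the filter.

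Between the forms 187 genes passed the adjusted threshold, 689 in DESeq2, 292 without the filter and 1 in limma. Members past it were 0 and list genes 0 in limma, and list genes 9 in DESeq2. In limma 6 members were still called at the unadjusted threshold, 3 higher and 3 lower.

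With 1 liver left out, the count between the vectors ran over all genes from 1108 to 2018 higher, 735 to 1712 lower and 0 to 928 adjusted. The adjusted count was 0 with replicate 2 of AAV8-TBG-GFP left out (2079 genes at an unadjusted p under 0.05) and with replicate 2 of AAV8-TBG-Cre left out (1923), and 928 without AAV8-TBG-Cre replicate 1. Members ran from 0 to 1 higher and 0 to 1 lower, and list genes from 2 to 8 higher, 2 to 6 lower and 0 to 5 adjusted. Between the forms the ranges were 692 to 1180 higher, 678 to 1129 lower and 4 to 70 adjusted over all genes, 3 to 4 higher, 1 to 4 lower and 0 to 1 adjusted over members, and 4 to 8 higher, 7 to 11 lower and 0 to 3 adjusted over list genes.

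Sign turned with the form as a covariate for Arntl (-0.25), Clock (-0.10), Cry2 (0.037), Nr1d1 (-0.0075) and Nr1d2 (0.056), and in limma for Cry2 (0.048 with a pseudocount of 1, with or without the filter, and 0.051 with 0.1) and Nr1d2 (0.12 and 0.13). Leaving out 1 liver, the difference between the vectors ran from -0.54 to 0.72 for Arntl, -0.079 to 0.23 for Clock, -0.12 to 0.37 for Per1, -0.21 to 0.38 for Per3, -0.30 to 0.11 for Cry2 and -0.15 to 0.052 for Nr1d2, and that between the forms from -0.48 to 0.34 for Per2.

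Whether the replicate numbers pair the livers could not be settled. The deviations of same-numbered livers correlated at 0.0092, -0.26 and 0.21, and not every liver correlated best with its own number. With 3 livers per group these correlations cannot exclude a pairing. With the replicate block, 7 genes passed the adjusted threshold between the vectors, 1504 were higher and 1093 lower, and the members' calls stayed at 0 higher and 1 lower (Cry1 -0.95). Of the named list genes, Hspa1a lost its call under the block. A test of the interaction without each liver was not run.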

Other observations

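Ratios between members, which do not depend on the scaling of a library, also differed between livers. Per3 FPKM was 56.5%, 65.5% and 90.7% of Per2 FPKM in the short-named libraries and 46.8%, 45.7% and 31.5% in the long-named ones, without overlap. Cry1 FPKM relative to Per2 was 26.5%, 43.2% and 23.3% in AAV8-TBG-GFP replicates 1 to 3 and 19.1%, 11.7% and 8.94% in AAV8-TBG-Cre replicates 1 to 3, here without overlap between the vectors. This ratio shares Cry1 with the ratio of Cry1 to Cry2, and the share of other gene pairs without overlap was not counted. Arntl FPKM relative to Nr1d1 was 1.25% to 4.22% in AAV8-TBG-GFP and 1.39% to 4.40% in AAV8-TBG-Cre livers, which overlapped.

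Cdkn1a, the cell cycle inhibitor gene that the clock and p53 both control, was called higher in the long-named libraries, at 49.8, 45.7 and 22.8 CPM against 21.6, 10.9 and 11.5 CPM in the short-named ones (log2 1.60, SE 0.33, edgeR adjusted p = 0.0711). It and Noct, the gene of nocturnin, at 41.9 to 69.7 CPM in the long-named and 26.1 to 49.6 CPM in the short-named libraries (log2 0.61, adjusted p = 0.263), were the 2 called higher among the 8 clock-controlled enzymes and signalling genes, and both are named after their values were seen.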
